A study of Homo sapiens with 4 samples.

Results

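The comparison described here set H1299 cells transfected with an siRNA against CDH3 (siCDH3) against H1299 cells given a control siRNA (siCTR), both sampled 48 h after transfection. H1299 is an established human lung cancer line. It accounts for 2 of the 4 libraries of the study. The other 2 come from HCC827, a second lung cancer line sampled at the same time, with siRNAs under the same labels. Total RNA was sequenced, with 1 library for each line and siRNA, so no difference between siRNAs has a replicate check and none was tested. Knockdown was transient, and neither the siRNA sequences nor how many siRNAs were used is given in these sources. Genes entered the comparison when they had a TPM, a length-scaled abundance that sums to a fixed total in every library, that reached 5 or more in either H1299 library or both. This rule kept 11622 of 58174 genes. Each gene's difference is the log2 ratio of TPM + 1, siCDH3 over siCTR, and a gene is described as at least 2-fold higher or lower where this ratio is at least 1 or is -1 or lower. The added 1 makes the ratios of weakly expressed genes smaller than those of their TPM.

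CDH3 encodes P-cadherin, a classical cadherin. Classical cadherins join neighbouring cells through their extracellular domains and bind p120-catenin, beta-catenin and plakoglobin on the inside, which link them through alpha-catenin to actin. Catenins released from junctions can also act in Wnt signalling. An siRNA lowers its target mRNA through the RNA interference machinery.

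CDH3, the targeted gene, was at 1.21 TPM in siCTR and 0.169 TPM in siCDH3, so 14% of the control level was left. CDH3 lay below the TPM filter in both libraries and is in none of the counts that follow. For comparison, HCC827 had 173 TPM of CDH3 with siCTR and 78.8 TPM with siCDH3. CDH1, which encodes E-cadherin, was close to absent in H1299 at 0.0495 TPM and 0.0345 TPM. Among the classical cadherins listed, the one that passed the filter in H1299 was CDH2, N-cadherin, at 35.3 TPM in siCTR and 22.7 TPM in siCDH3 (log2 ratio -0.61).

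The markers of cell state matched a mesenchymal-like line in both libraries. VIM, the intermediate filament protein vimentin, stood at 5149 TPM and 5060 TPM, and 20 of 24 mesenchymal genes passed the filter. Only 6 of 23 epithelial genes did. Of the markers of other cell types, 1 of 20 hematopoietic, 2 of 15 fibroblast, 0 of 12 endothelial and 1 of 12 lung epithelial genes passed. Their summed TPM went from 133 to 132, from 68.0 to 70.6, from 6.51 to 4.63 and from 5.89 to 9.66. CD68, a lysosomal glycoprotein, was at 122 TPM in both libraries and made up most of the hematopoietic sum, while 9 hematopoietic markers in siCTR and 12 in siCDH3 were listed at 0. Lung epithelial markers other than AGER, which had 4.59 TPM and 7.62 TPM, stayed below 2 TPM, and their part in the results was not tested. In bulk RNA, a different share of cells and a different amount of RNA per cell cannot be told apart.

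At least 2-fold higher with siCDH3 were 102 genes (0.878%), and 184 genes (1.58%) were at least 2-fold lower, which makes 286 of 11622 (2.46%) in either direction. HCC827 had 111 genes higher (1.01%) and 92 lower (0.833%) by the same rule, or 203 (1.84%) in all. The median log2 ratio over all genes in H1299 was -0.11, against 0.03 in HCC827, so gene groups are described relative to that median, above and below which equal numbers of all genes lie. The excess of lower over higher genes rests on this shift: 64.3% of the genes past 2-fold were lower as deposited, and 48.9% with the median set to 0. At 1.5-fold the H1299 counts were 373 higher (3.21%) and 826 lower (7.11%), or 1199 (10.3%) in all, and 85.1% of all genes lay within 0.5 log2 units of no difference. Protein-coding genes numbered 83 of the 102 higher and 169 of the 184 lower genes. Many were weakly expressed: 59 higher and 76 lower genes stayed below 20 TPM in both libraries, where TPM rests on fewer reads. Of the 102 higher genes 51 passed the filter through the siCDH3 library alone, and of the 184 lower genes 60 did so through the siCTR library alone, so these had to differ. At high expression, 23 higher and 49 lower genes reached 50 TPM in at least 1 library. Among the 603 genes with a mean of 200 TPM or more, 2 were higher by this rule and 0 were lower (0.332%).

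**Figure D1:**
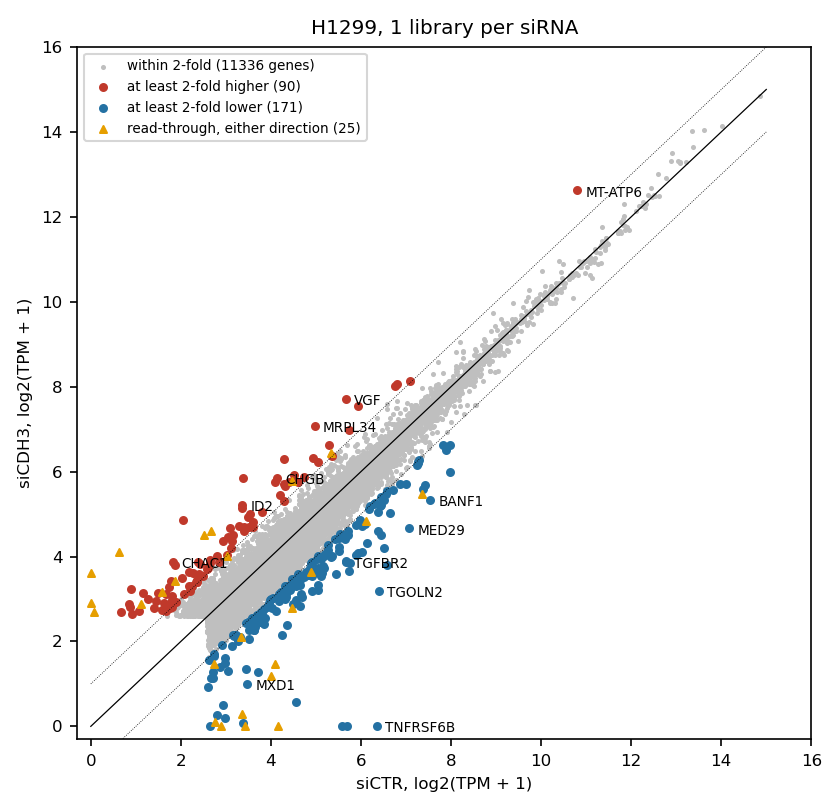
Each point is 1 of 11622 genes in H1299, with log2(TPM + 1) in siCTR on the horizontal axis and in siCDH3 on the vertical axis; the solid line marks equal levels, the dotted lines a 2-fold difference, and triangles the 25 read-through genes past it. The 184 lower genes reach further from the line than the 102 higher genes, and past 200 TPM on average only 2 genes lie outside the dotted lines.

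Among the lower genes were TGOLN2, RHOQ, RAB5C, TSPAN3, SORT1 and ARF4, which act at membranes and are described together for that reason only. TGOLN2 (ENSG00000152291), a trans-Golgi network protein that cycles to the cell surface, had 83.5 TPM in siCTR and 8.11 TPM in siCDH3, a log2 ratio of -3.21 and the largest deficit among protein-coding genes above 50 TPM after TNFRSF6B. RHOQ, a Cdc42-like GTPase, had 90.8 TPM and 17.4 TPM (-2.32). RAB5C, a GTPase of early endosomes, had 171 TPM and 50.1 TPM (-1.75), and TSPAN3, a tetraspanin of the plasma membrane, had 86.0 TPM and 21.6 TPM (-1.95). SORT1, the sorting receptor sortilin, had 22.7 TPM and 8.92 TPM (-1.25). ARF4, a GTPase of Golgi coat assembly, had 226 TPM and 98.2 TPM (-1.20). Every one of these genes was more than 2-fold lower with siCDH3, yet in HCC827 TGOLN2 stood at 0.19, SORT1 at 0.01, RAB5C at 0.35 and TSPAN3 at -0.29, and RHOQ and ARF4 were higher, at 1.39 and 1.69. Of these genes the ARF and Golgi list holds TGOLN2, SORT1 and ARF4. Of its 35 members, 3 were at least 2-fold lower and 1 higher, beside 1.58% and 0.878% of all genes. Its median was 0.02 below that of all genes. The higher member was STX16, a syntaxin of the trans-Golgi network, with 18.7 TPM and 51.3 TPM (1.41).

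Secretion and the endoplasmic reticulum gave further large differences. SRP9, a subunit of the signal recognition particle, had 165 TPM in siCTR and 47.6 TPM in siCDH3 (-1.77, and 0.90 in HCC827). SELENOF, a selenoprotein of the endoplasmic reticulum, had 251 TPM and 63.1 TPM (-1.98, and -0.05 in HCC827). MPI, which supplies mannose for glycosylation, had 52.8 TPM and 13.3 TPM (-1.91) and was also lower in HCC827 (-1.30). HERPUD1, a gene of endoplasmic reticulum protein degradation, went the other way, with 26.7 TPM and 50.6 TPM (0.90). None of the 26 chaperone and unfolded protein response genes passed 2-fold, and their median was 0.03 above that of all genes.

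In the nuclear lamina list 1 of 18 genes, BANF1, was at least 2-fold lower, beside 1.58% of all genes. BANF1, which binds DNA and tethers it to the nuclear envelope, had 186 TPM in siCTR and 39.2 TPM in siCDH3 (-2.21). Other members went either way by less than 2-fold. The lamin protease ZMPSTE24 had 23.9 TPM and 14.4 TPM (-0.69), the lamin B receptor LBR 18.8 TPM and 11.5 TPM (-0.67), and TMPO, a lamina-associated protein, 56.9 TPM and 37.6 TPM (-0.58). SYNE2, a nesprin of the nuclear envelope, was higher at 15.4 TPM and 21.3 TPM (0.45). Of the 18 lamina genes, 14 lay below the median of all genes, and the list median was 0.19 below it. In HCC827 the median of the same genes was -0.00.

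Components of the transcription machinery differed singly rather than as complexes. MED29, a subunit of the Mediator complex that couples transcription factors to RNA polymerase II, had 133 TPM and 24.3 TPM (-2.41), and MED26 had 11.9 TPM and 5.19 TPM (-1.05). The other 30 of 32 Mediator genes did not pass 2-fold. Of all genes, 1.58% were at least 2-fold lower. The Mediator list median was 0.04 below that of all genes. Among transcription factors, KLF7 had 17.8 TPM and 3.44 TPM (-2.08), ELF4, an ETS factor, 60.2 TPM and 15.9 TPM (-1.86), and ZHX1 31.9 TPM and 8.24 TPM (-1.83). All 3 were within 0.10 of 0 in HCC827, and KLF7 passed the filter through the siCTR library alone. Others were higher, such as the zinc finger gene ZNF302, with 7.20 TPM and 21.1 TPM (1.43). Of 267 genes named ZNF, 4 were at least 2-fold higher and 7 lower, beside 0.878% and 1.58% of all genes. Of these, 3 of the 4 passed the filter through siCDH3 alone and 5 of the 7 through siCTR alone. The ZNF median was 0.01 below that of all genes. TSN, which encodes translin, an RNA-binding protein that assists the RNA interference complex, had 52.2 TPM and 11.6 TPM (-2.08). Its partner TSNAX had 19.2 TPM and 10.5 TPM (-0.82), and TNRC6A, a scaffold of Argonaute proteins, had 37.4 TPM and 20.6 TPM (-0.83). The 17 RNA interference genes nonetheless had a median 0.01 above that of all genes. TSN was the only one past 2-fold, beside 2.46% of all genes.

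TGF-beta signalling held differences at the receptor, the shared SMAD and the targets. TGF-beta ligands bind the receptor pair TGFBR2 and TGFBR1, which phosphorylate SMAD2 and SMAD3. These enter the nucleus with SMAD4. Among ligands, TGFB1 had 389 TPM in siCTR and 407 TPM in siCDH3 (0.07), and TGFB2 had 20.3 TPM and 14 TPM (-0.50). TGFB2 overlaps TGFB2-OT1 in the annotation, and the pair summed to 42.9 TPM and 14.5 TPM (-1.50). TGFBR2 (ENSG00000163513) had 49.7 TPM and 13.8 TPM, a log2 ratio of -1.78, while TGFBR1 had 9.17 TPM and 7.30 TPM (-0.29). SMAD4 had 39.6 TPM and 14.8 TPM (-1.36), SMAD3 255 TPM and 143 TPM (-0.83), and SMAD2 29.9 TPM and 24.2 TPM (-0.29). In HCC827 the log2 ratio was 0.08 for TGFBR2, 0.09 for SMAD4 and 0.16 for SMAD3.

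Genes that respond to TGF-beta did not share a direction. ID2, a helix-loop-helix inhibitor of differentiation factors, had 9.22 TPM and 36.1 TPM (1.86). PMEPA1, a feedback inhibitor, had 7.95 TPM and 16.8 TPM (0.99), and SKIL, a SMAD corepressor, 8.04 TPM and 12.0 TPM (0.53). ID1, at 229 TPM and 248 TPM (0.12), and ID3, at 165 TPM and 153 TPM (-0.11), differed little. SMAD7, the inhibitory SMAD, had 21.3 TPM and 16.8 TPM (-0.33). Of the 23 pathway genes, 2 were at least 2-fold lower and 1 higher, beside 1.58% and 0.878% of all genes. The list median was 0.04 below that of all genes.

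The MYC network showed lower levels of MXD1 and of MAX, the obligate partner of MYC and of the MXD repressors. MAX had 86.6 TPM in siCTR and 36.0 TPM in siCDH3 (-1.25, and -0.09 in HCC827). MYC itself had 21.0 TPM and 21.4 TPM (0.02). MXD1 had 10.1 TPM and 1.01 TPM (-2.46, and -2.23 in HCC827). These were the 2 of 15 network genes past 2-fold, beside 2.46% of all genes. MXD1 passed the filter through the siCTR library alone, so it had to be lower. The list median was 0.03 below that of all genes. MXD1 overlaps SNRNP27 in the annotation, and the pair summed to 59.8 TPM and 39.2 TPM (-0.60), so the size of its difference depends on how reads were assigned.

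**Figure D2:**
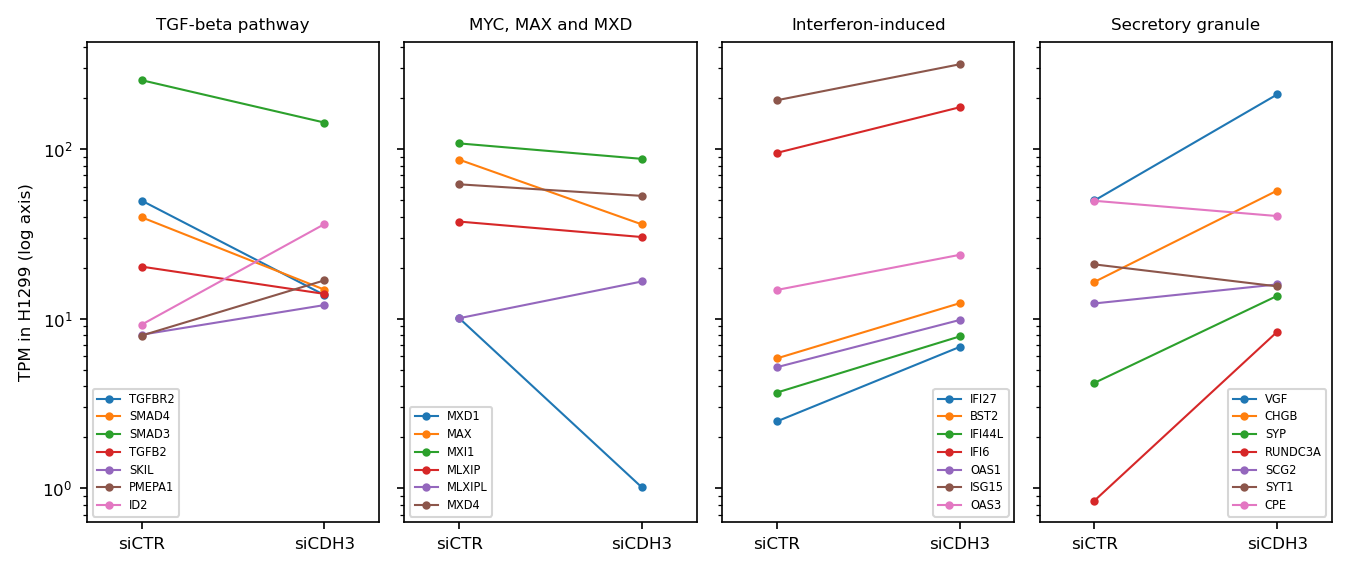
TPM of genes from 4 lists in the siCTR and siCDH3 libraries of H1299, on a log axis, with 1 point per library and a line joining the points of a gene. TGFBR2 and SMAD4 slope down while ID2 and PMEPA1 slope up, and MXD1 and MAX slope down. The interferon-induced genes drawn are the 7 of 35 effectors that were at least 1.5-fold higher, so all slope up by that choice. The lowest effector, SP110 (log2 ratio -0.32), is not drawn. In the secretory granule list RUNDC3A, VGF, CHGB and SYP slope up while SYT1 and CPE slope down.

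Among genes of regulated secretion 4 were at least 2-fold higher. VGF, a granin-like neuropeptide precursor, had 49.8 TPM in siCTR and 210.0 TPM in siCDH3 (2.06). CHGB, the granule protein chromogranin B, had 16.5 TPM and 56.9 TPM (1.73). SYP, the vesicle membrane protein synaptophysin, had 4.18 TPM and 13.6 TPM, 3.26-fold higher, and RUNDC3A had 0.846 TPM and 8.37 TPM (2.34). The list has 23 genes, of which 10 passed the filter, RUNDC3A and SYP through the siCDH3 library alone, so the 4 beside 0.878% of all genes do not measure a response of the list. The other 6 ranged from SYT1, a calcium sensor of exocytosis, at 20.9 TPM and 15.5 TPM (-0.41), to SCG2, secretogranin II, at 12.3 TPM and 15.9 TPM (0.35). The median was 0.35 above that of all genes and 0.01 below it when only genes of at least 20 TPM were kept, so it rests on weakly expressed members. Outside the list, PCLO, a presynaptic scaffold, had 3.52 TPM and 11.4 TPM (1.45), and AP3B2, a neuronal subunit of the AP-3 adaptor, had 1.82 TPM and 7.86 TPM (1.65). Both were picked from the 30 highest genes. Both passed the filter through the siCDH3 library alone, so they had to be higher and add nothing to the list. CHGB and SYP were below 0.3 TPM in both HCC827 libraries, where VGF had a log2 ratio of 1.02 and RUNDC3A one of 1.36.

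The cAMP response element with the letters TGACGTCA, a palindrome that reads alike on both strands, was sought in RefSeq promoter windows (build GRCh38.p14, from 250 bases before to 50 after each gene start). It was found in 1 of the 7 secretory list genes that had a window (14.3%) and in 649 of 35116 windows of all genes (1.85%). The match belongs to VGF, in which this element is known, and is shown 5′ to 3′ with the element in capitals, at chr7:101165629-101165658 on the minus strand, the strand of the gene.
VGF: gaatgaacatTGACGTCAatggggcggggc

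Interferon-induced genes were moderately higher. Type I interferon signals through a complex that holds STAT2 and IRF9 and binds the interferon-stimulated response element (ISRE) in the promoters of antiviral effector genes. Of 35 expressed effectors out of 48 in the list, 30 lay above the median of all genes, 7 were at least 1.5-fold higher (3.21% of all genes were) and 0 at least 1.5-fold lower (7.11% of all genes were). IFI27 and IFI44L, which are 2 of the 7, passed the filter through the siCDH3 library alone. The 35 effectors had a median 0.20 above that of all genes, and the lowest of them was SP110, with 42.4 TPM and 33.7 TPM (-0.32). IFI27 had 2.48 TPM in siCTR and 6.81 TPM in siCDH3 (1.17). It was the only effector past 2-fold (2.46% of all genes were), though at low TPM. BST2, which tethers budding virions, had 5.83 TPM and 12.3 TPM (0.96), and IFI44L had 3.67 TPM and 7.85 TPM (0.92). IFI6 had 95 TPM and 176 TPM (0.89), and ISG15, a ubiquitin-like modifier, 194 TPM and 316 TPM (0.70). The double-stranded RNA sensor OAS1 had 5.17 TPM and 9.82 TPM (0.81). In HCC827 these 6 genes lay between 0.11 (IFI27) and 0.30 (OAS1).

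The signalling genes upstream lay with the bulk of genes as a group. IRF9, the DNA-binding subunit of the interferon-activated complex, had 43.3 TPM and 84.8 TPM (0.95), and 0.89 when summed with the genes that overlap it. SOCS1, a feedback inhibitor, had 14.4 TPM and 9.63 TPM (-0.53). The 20 sensing and signalling genes split 10 above and 10 below the median of all genes, and 0 passed 2-fold.

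The ISRE core, searched on both strands as GAAA, any 2 bases and GAAA again, with overlapping matches allowed, was found in the RefSeq promoter windows of 23 of 33 expressed effectors with a window (69.7%). Counted by window, 27 of the 43 windows of these effectors held it, and 1255 of 35116 windows of all genes (3.57%) did. The list was assembled from genes known to respond to interferon, so the effector shares describe the list and not the libraries. To show what the shared element looks like, one match on the strand of the gene is given for 4 of the genes described above, 5′ to 3′ with the core in capitals, at chr14:94110631-94110660 (plus) for IFI27, chr19:17405741-17405770 (minus) for BST2, chr1:27672288-27672317 (minus) for IFI6 and chr1:1013380-1013409 (plus) for ISG15.
IFI27: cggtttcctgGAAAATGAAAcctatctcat
BST2: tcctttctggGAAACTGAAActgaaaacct
IFI6: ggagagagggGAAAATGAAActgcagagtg
ISG15: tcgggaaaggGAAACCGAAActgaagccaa

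MHC class I genes, which present peptides to T cells, differed one by one. HLA-C had 111 TPM and 267 TPM (1.26), but its exons overlap those of HLA-B, which had 421 TPM and 367 TPM, and the sum differed little, at 531 TPM and 634 TPM (0.25). The near-identical sequences of these genes also make the split of reads between them uncertain. B2M, the shared light chain, had 337 TPM and 265 TPM (-0.35), in contrast to 3.36 in HCC827. The list of 19 genes had a median 0.09 above that of all genes.

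Genes of cadherin junctions were mostly lower. CTNND1, p120-catenin, which holds cadherins at the membrane, had 82.2 TPM in siCTR and 23.3 TPM in siCDH3 (-1.78), and it was higher in HCC827 (1.24). CTNNA1, alpha-catenin, had 312 TPM and 164 TPM (-0.92), and CTNNB1, beta-catenin, 83.0 TPM and 60.6 TPM (-0.45). JUP, plakoglobin, was level at 24.5 TPM and 24.4 TPM (-0.01). NECTIN2, a nectin adhesion receptor, was higher at 225 TPM and 321 TPM (0.51). Of 11 expressed genes in the cadherin and catenin list, 8 lay below the median of all genes, and the list median was 0.28 below it, or 0.16 below it once a trend on GC content and transcript length had been removed.

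In tight junctions and desmosomes, CLDN12, a claudin, had 49.7 TPM and 13.7 TPM (-1.78), OCLN, occludin, 20.1 TPM and 10.8 TPM (-0.84), and DSG2, a desmosomal cadherin, 36.1 TPM and 23.0 TPM (-0.63). The other 13 of 16 genes lay between -0.29 and 0.29, and 8 of the 16 were above the median of all genes. Clustered protocadherins went both ways. PCDHGA3 had 9.45 TPM and 56.8 TPM (2.47), PCDHB2 5.31 TPM and 13.5 TPM (2.55-fold), PCDHAC2 2.18 TPM and 5.62 TPM (1.06) and PCDHGA6 10.5 TPM and 3.19 TPM (-1.46). PCDHAC2 passed the filter through the siCDH3 library alone and PCDHGA6 through the siCTR library alone, so these had to differ. The gamma genes share their last exons, and PCDHGA3 summed with the 8 genes overlapping it gave 51.1 TPM and 87.1 TPM (0.76), so single members of that cluster are uncertain. PCDHAC2 summed with the 3 alpha genes that overlap it had 9.29 TPM and 11.7 TPM (0.30), which is inside 2-fold.

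Genes of the mesenchymal state were lower in part. S100A4, a calcium-binding protein of motile cells, had 48.9 TPM and 20.4 TPM (-1.22). The transcription factors TCF4, with 14.7 TPM and 8.28 TPM (-0.76), and ZEB1, with 34.7 TPM and 20.6 TPM (-0.73), and the matrix protein SPARC, with 19.2 TPM and 12.4 TPM (-0.59), were lower by less than 2-fold. TWIST1, at 36.0 TPM and 38.2 TPM (0.08), and AXL, at 334 TPM and 317 TPM (-0.08), were level. The list of 20 had 11 genes below the median of all genes and a median 0.11 below it. All 6 expressed epithelial genes lay above that median, led by KRT7, a simple epithelial keratin, with 5.49 TPM and 10.2 TPM (0.78), while KRT8, at 317 TPM and 330 TPM, and KRT18, at 345 TPM and 361 TPM, differed by 0.06 and 0.07. CDH1 was not among them. The median of the 6 was 0.29 above that of all genes, or 0.15 above it once a trend on GC content and transcript length had been removed. With no filter on low values, the epithelial list lay 0.09 above the median of all genes.

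Integrin, matrix and protease genes differed by less than 2-fold in all 25 integrin and focal adhesion, 19 matrix and 20 protease genes past the filter. ITGAV, an integrin subunit for RGD ligands, had 26.0 TPM and 14.4 TPM (-0.81), and ITGB1 had 574 TPM and 430 TPM (-0.41). PLAU, the urokinase plasminogen activator, had 290 TPM and 204 TPM (-0.51). The shedding proteases ADAM10, at 25.5 TPM and 16.1 TPM (-0.63), and ADAM17, at 54.3 TPM and 35.8 TPM (-0.59), were also lower. Medians were 0.04, 0.02 and 0.07 below that of all genes for the 3 lists. Of 21 Hippo pathway genes 1 passed 2-fold, beside 2.46% of all genes. This was PTPN14, a phosphatase that binds YAP, with 21.3 TPM and 10.02 TPM (-1.02), or -0.70 when summed with the gene that overlaps it. YAP1 had 58.4 TPM and 33.5 TPM (-0.79) and its paralogue WWTR1 had 107 TPM and 71.3 TPM (-0.58). The YAP targets CTGF, at 47.6 TPM and 48.4 TPM (0.02), and CYR61, at 329 TPM and 336 TPM (0.03), were level.

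Cell cycle genes differed little. Among G1 regulators, E2F3 had 13 TPM and 7.65 TPM (-0.70), RB1, the retinoblastoma protein that restrains E2F, 41.5 TPM and 26.1 TPM (-0.65), and CCND1, cyclin D1, 137 TPM and 92.5 TPM (-0.56). Of 21 G1 genes, 15 were below the median of all genes, and the list median was 0.12 below it. The 45 replication genes had a median 0.13 below, with 28 on the lower side. POLA1, the catalytic subunit of DNA polymerase alpha, had 11.8 TPM and 7.44 TPM (-0.60), while POLD3, a subunit of polymerase delta, had 7.55 TPM and 11.4 TPM (0.54). Mitotic genes split 19 and 19, with a median 0.01 below that of all genes. The mitotic kinase AURKA was the lowest, at 68.9 TPM and 35.3 TPM (-0.94), and CCNB1, cyclin B1, was level at 85.8 TPM and 84.6 TPM (-0.02). HJURP, the chaperone that loads the centromeric histone CENPA, was outside these lists and 3.31-fold higher in TPM, with 15.9 TPM and 52.8 TPM (1.67), while CENPA had 19.2 TPM and 19.4 TPM. Among apoptosis genes XIAP, an inhibitor of caspases, had 10.4 TPM and 3.81 TPM (-1.24). It was the only one of 22 past 2-fold, beside 2.46% of all genes. XIAP passed the filter through the siCTR library alone, so it had to be lower.

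Lipid synthesis genes differed by less than 2-fold. In the fatty acid list ACSL1, an acyl-CoA synthetase, had 16.3 TPM and 10.1 TPM (-0.64), and SCD, the stearoyl-CoA desaturase, 2189 TPM and 1591 TPM (-0.46). Its 19 genes had a median 0.19 below that of all genes, with 7 above and 12 below. In cholesterol synthesis CYP51A1 had 58.0 TPM and 34.0 TPM (-0.75), and DHCR7, a late enzyme, 53.7 TPM and 76.3 TPM (0.50). That list had a median 0.03 below that of all genes, with 10 genes above and 13 below.

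Mitochondrial transcripts were higher. All 13 protein genes of the mitochondrial genome had higher TPM with siCDH3, from MT-CO1, at 16613 TPM and 18101 TPM (0.12), to MT-ATP6, at 1788 TPM and 6307 TPM (1.82). MT-ATP6 overlaps MT-ATP8 and MT-CO3, and the 3 together had 19142 TPM and 26239 TPM (0.45). The list median was 0.39 above that of all genes, or 0.11 after quantile normalization. Nuclear subunits of complex I lay above that median in 33 of 38 cases, by 0.14 at the list median. The list median itself was 0.04, at a median transcript length of 1350 bases. All genes in the shortest quartile of transcript length had a median of 0.00. Within complex I, NDUFS1 had 23.7 TPM and 41.9 TPM (0.79) and NDUFB5 102 TPM and 51.1 TPM (-0.98). SDHD, a membrane anchor of complex II, had 92.4 TPM and 43.6 TPM (-1.06). MRPL34, a mitochondrial ribosomal protein, had 30.4 TPM and 135 TPM (2.11), against -2.01 in HCC827. The other 77 mitochondrial ribosomal protein genes did not pass 2-fold, which 2.46% of all genes did. Cytosolic ribosomal protein genes lay above the median of all genes in 65 of 79 cases, by 0.11 at the list median and by 0.01 after quantile normalization.

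**Figure D3:**
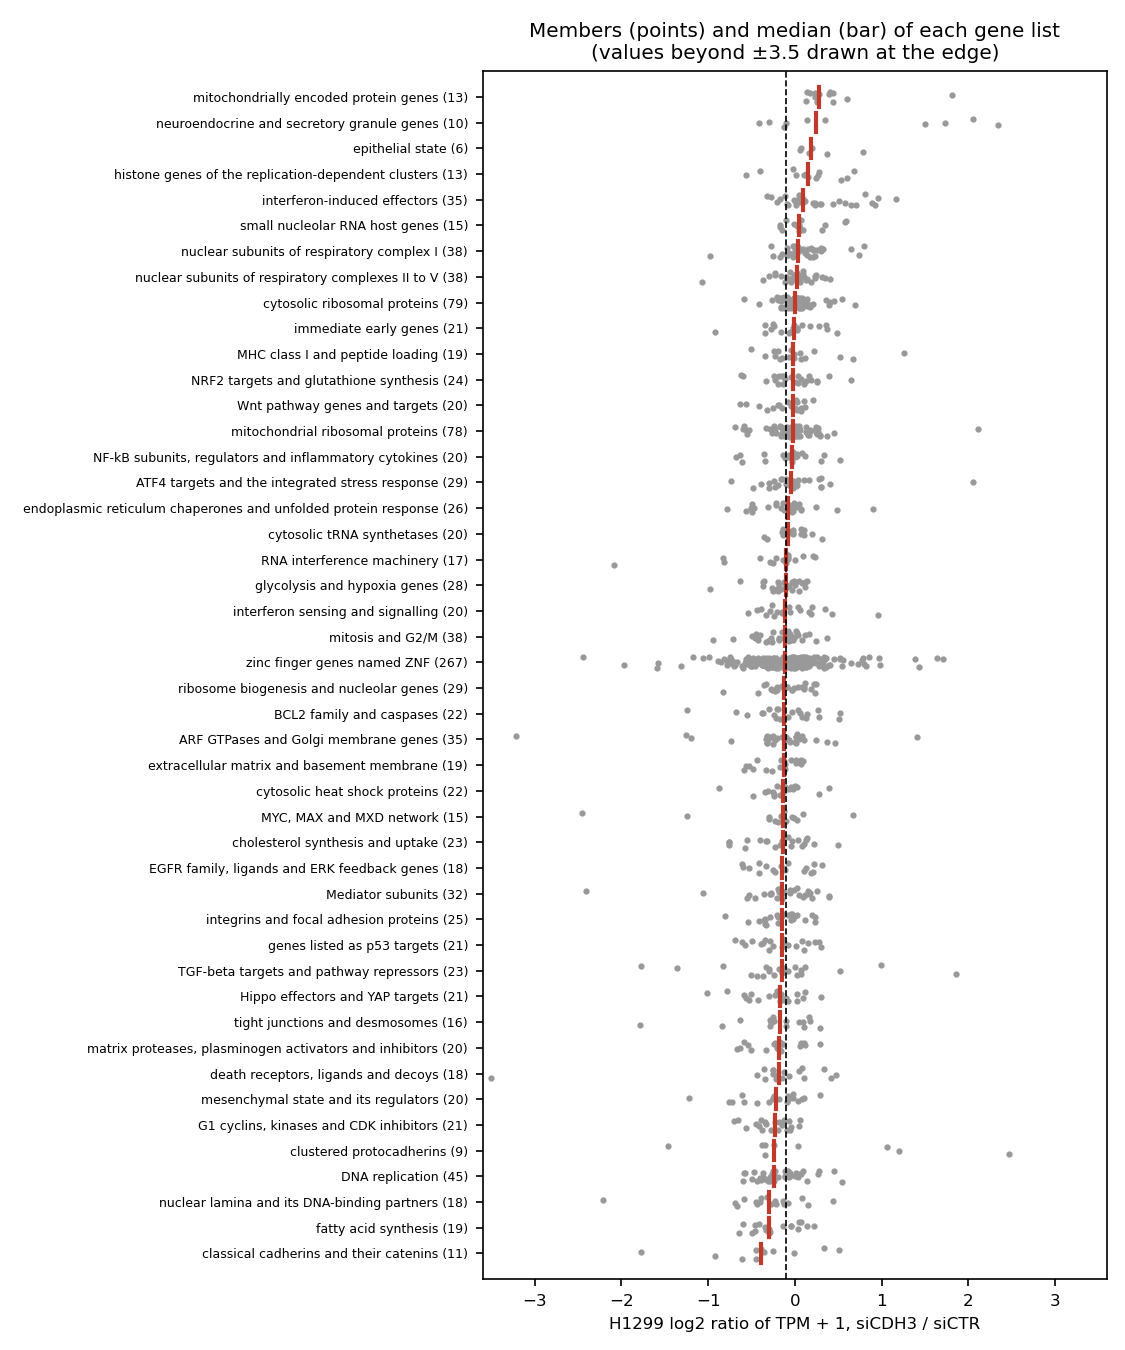
Points are the H1299 log2 ratios (TPM + 1, siCDH3 over siCTR) of the expressed members of gene lists, bars are list medians, the dashed line is the median of all 11622 genes at -0.11, and numbers in brackets count members. Medians run from -0.39 for cadherins and catenins to 0.28 for mitochondrially encoded genes, and most of the far points are single members of lists whose median sits near the dashed line.

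Stress pathways were represented by single genes too. CHAC1, which degrades glutathione and is an ATF4 target, had 2.53 TPM and 13.6 TPM (2.05), but ASNS, another target, had 171 TPM and 175 TPM, and DDIT3 had 98.1 TPM and 70.1 TPM (-0.48). CHAC1 was the only gene of the ATF4 list of 29 past 2-fold, beside 2.46% of all genes. It passed the filter through the siCDH3 library alone, so it had to be higher. The list median was 0.07 above that of all genes. MPST, a sulfurtransferase that generates hydrogen sulfide, had 18.6 TPM and 77.4 TPM, 4.16-fold higher, with a log2 ratio of 0.10 in HCC827. HSPA2, an HSP70 family chaperone, had 9.95 TPM and 1.57 TPM (-2.09), while 0 of the 22 genes in the list of cytosolic heat shock proteins, which does not hold HSPA2, passed 2-fold. GRB2, the adaptor that couples receptor tyrosine kinases to RAS, had 29.6 TPM and 78.9 TPM (1.39, and 0.05 in HCC827). CBX1, a heterochromatin protein, had 60.1 TPM and 185 TPM (1.60, and -1.53 in HCC827). The largest difference in TPM itself was that of EEF1A1, the translation elongation factor, at 10409 TPM and 16552 TPM (0.67).

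Genes next to the 2-fold limit show how little separates the groups. Just inside on the lower side were BMI1, with 37.8 TPM and 18.4 TPM, and JRK, with 6.58 TPM and 2.79 TPM. Just outside were DEPDC1, with 21.1 TPM and 10.1 TPM, and LPCAT1, with 34.3 TPM and 16.7 TPM. On the higher side ZBTB9, with 3.57 TPM and 8.17 TPM, fell inside, and TPM3, with 94.8 TPM and 190.5 TPM, and NAPEPLD, with 2.98 TPM and 6.94 TPM, fell outside.

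Overlapping gene models bear on part of these counts. Of the genes past 2-fold, 34 higher and 44 lower ones share exons on the same strand with another gene of at least 1 TPM. When each gene was summed with those it overlaps, 72 of the 102 higher and 151 of the 184 lower genes were still past 2-fold. TNFRSF6B, the decoy receptor DcR3, had 80.8 TPM and 0.00849 TPM, and with the read-through gene that contains it 87.9 TPM and 15.2 TPM (-2.45). LBHD1 had 23.9 TPM and 6.11 TPM (-1.81), but with C11orf98 the sum was higher, at 75 TPM and 103.9 TPM (0.46). HOXC6 had 9.27 TPM and 34.2 TPM (1.78), and with the HOXC genes it overlaps 66.0 TPM and 93.5 TPM (0.50). LEPROT, with 7.47 TPM and 24.3 TPM (1.58), had 14.1 TPM and 29.2 TPM when summed with LEPR. Sums over overlapping genes also brought PCDHAC2, PTPN14, MED26 (-0.66) and ZBTB9 (0.33) inside 2-fold. TGFBR2, SMAD4, MAX, TGOLN2, BANF1, MED29, TSN, VGF, CHGB and SYP overlap no such gene.

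Read-through genes, annotated models that join neighbouring genes into 1 transcript, passed 2-fold in 25 of 99 cases (25.3%), beside 2.46% of all genes. Of the 25, 12 were higher and 13 lower. Summed with the genes they overlap, 23 of the 25 lay within 0.5 log2 units of no difference. TMEM189-UBE2V1 had 163 TPM and 43.4 TPM while UBE2V1 had 110.1 TPM and 202 TPM, and their group summed to 283 TPM and 260 TPM. NEDD8-MDP1 had 0.54 TPM and 16.3 TPM in a group of 181 TPM and 190 TPM. The values of such genes and of the single genes they contain cannot be told apart from the way reads were divided between them.

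The log2 ratio varied with transcript composition in H1299. From the lowest to the highest quartile of GC content of the longest transcript, the median was -0.29, -0.15, -0.05 and 0.04. Quartiles of transcript length, short to long, had medians of 0.00, -0.08, -0.15 and -0.21. The same genes in HCC827 lay between 0.01 and 0.04 across GC quartiles. A joint trend on length and GC took 11.4% of the variance of the log2 ratio in H1299 and 0.479% in HCC827. Genes at least 2-fold lower had a median GC content of 44.9%, those higher 52.5%, and all genes 48.5%. With the trend removed, 84 of the 102 higher and 140 of the 184 lower genes were still past 2-fold. Interferon effectors, which have a median GC content of 46.3%, were then 0.25 above the median of all genes. The part of transcript composition in the results was measured only through this removal, and its source was not tested.

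**Figure D4:**
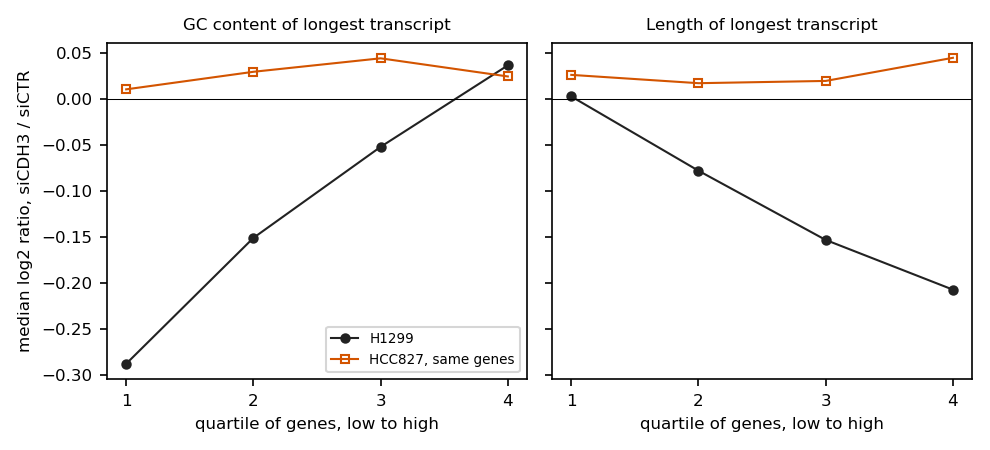
Median log2 ratio (siCDH3 over siCTR) by quartile of GC content, left, and of length, right, of each gene's longest annotated transcript, with H1299 as filled circles and the same genes in HCC827 as open squares. The H1299 medians climb from -0.29 to 0.04 with GC content and run from 0.00 to -0.21 with length, while the HCC827 medians stay between 0.01 and 0.04.

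Some of the H1299 genes past 2-fold met the same rule in HCC827, where CDH3 was more abundant and where 1.01% of all genes were at least 2-fold higher and 0.833% lower. Of the 102 higher genes, 68 passed the filter in HCC827. There, 13 of these 68 (19.1%) were at least 2-fold higher as well, which is 12.7% of the H1299 list and 11.7% of the HCC827 list, 8 were at least 2-fold lower, and 38 lay within 0.5 log2 units of no difference. Of the 184 lower genes, 151 passed, with 13 of them (8.61%) at least 2-fold lower (7.07% of the H1299 list and 14.1% of the HCC827 list), 6 at least 2-fold higher and 108 within 0.5. Genes that were lower in both lines include TNFRSF6B (-6.34 in H1299 and -6.76 in HCC827), which a read-through gene contains. Others were JPT2, at 63.7 TPM and 16.1 TPM in H1299 (-1.92, and -1.81 in HCC827), and MXD1. Genes that were higher in both include TMEM198, at 1.25 TPM and 7.85 TPM in H1299 (1.98, and 1.75 in HCC827), TNFAIP1, an adaptor of a ubiquitin ligase, at 10.7 TPM and 31.1 TPM (1.46, and 1.75 in HCC827), and VGF. With 1 library per line and siRNA, the difference between the lines could not be tested.

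**Figure D5:**
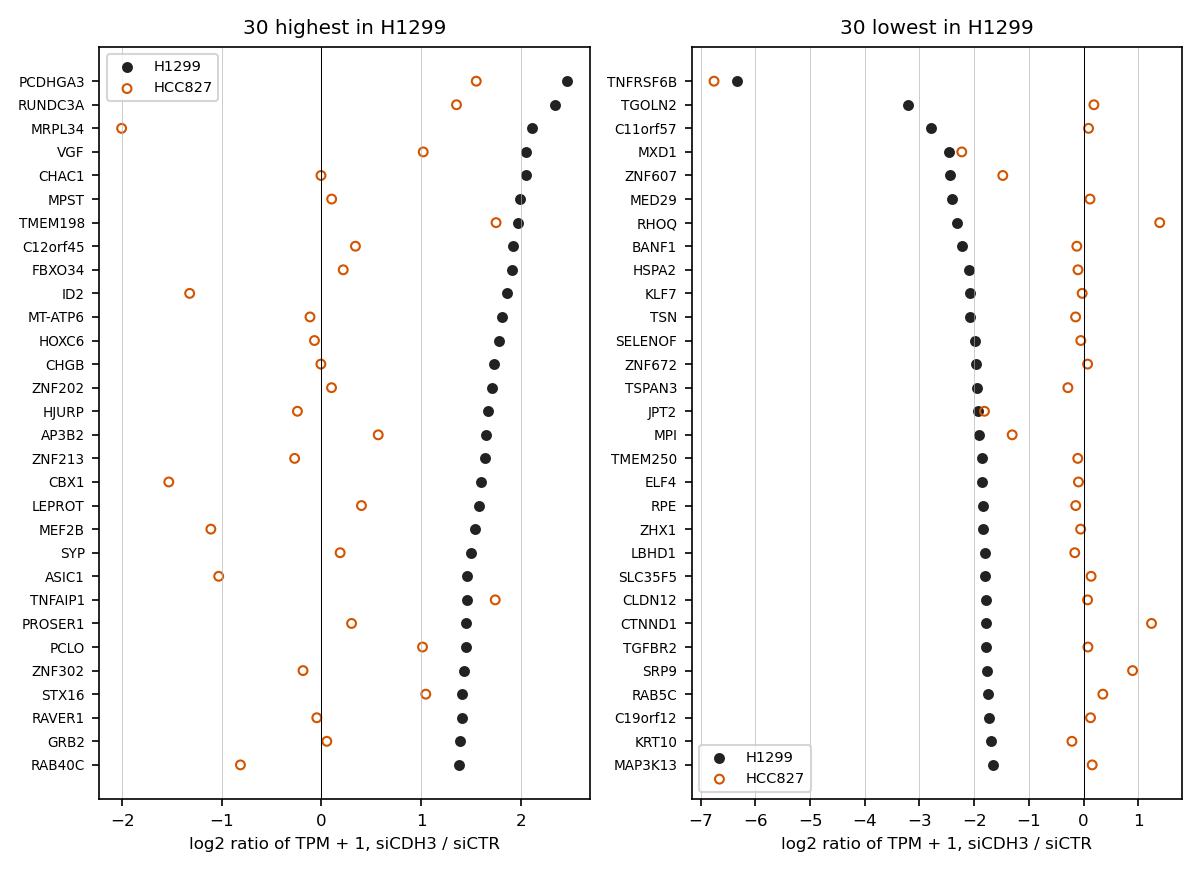
Log2 ratios (TPM + 1, siCDH3 over siCTR) of the 30 highest, left, and 30 lowest, right, protein-coding genes of H1299 that are not read-through genes, with H1299 as filled and HCC827 as open circles. All 30 are drawn in each panel, but the counts here cover only genes that passed the filter in HCC827. Of 28 such genes among the lowest, 21 lie within 0.5 of 0 in HCC827. In the same direction 4 of the 28 pass 2-fold, and 2 do so in the opposite direction. Of 22 such genes among the highest, 12 lie within 0.5, 5 pass 2-fold in the same direction and 4 in the opposite direction.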

How the data were processed

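The deposited values are TPM for 58174 genes, as the authors made them, with 1 column for each of the 4 libraries and no pooling. The genome build was hg19, per the submitters' processing notes. No source used here names the aligner, the way reads were counted, their strand or their number. TPM keeps no depth, so values carry no counting interval or detection floor, and their precision at low levels is unknown. Values are relative within a library: each H1299 column summed to 999859 or 999907, and 11329 genes in siCTR and 11103 in siCDH3 reached 5 TPM.

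Ratios were computed with Python 3.11.15, pandas 2.3.3 and numpy 2.4.6, as log2((TPM + 1) / (TPM + 1)), and counted at 2-fold. With 1 library per group no test was made. A simulation with 4-fold differences in genes of at least 20 TPM checked the ratio and the 2-fold limit. It did not cover more weakly expressed genes or the precision of these libraries. Gene types, overlaps, read-through models, length and GC content came from GENCODE release 29, which holds 57836 (99.4%) of the table's genes and is built on a later assembly than hg19. It was joined to the table by gene identifier and not by position, so overlaps and read-through groups follow the gene models of the later assembly. Some genes and 1 list are not reported here. Promoter windows came from RefSeq (GRCh38.p14) and were matched by gene symbol.

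The members and the 51 gene lists were chosen with earlier results of these data known, so a list's counts describe these libraries and are not independent evidence. Named genes were the 30 highest and 30 lowest protein-coding genes, the cadherins CDH1, CDH2 and CDH3, the 10 highest and lowest above 50 TPM, up to 6 members per list with the largest log2 ratios, read-through genes, genes next to the 2-fold limit and the 5 largest differences in TPM. Members of a list named for being level (such as MYC, VIM, ID1, TGFB1, JUP, CCNB1 or KRT8) or as partners in a pathway, and CENPA and SMAD7, were chosen after their values were seen.

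Alternatives were pseudocounts of 0.1 and 5, other TPM filters, a median set to 0, quantile normalization, 1.5-fold and 4-fold limits and list means. TPM was also taken over nuclear protein-coding genes other than those of cytosolic ribosomal proteins. Further alternatives removed read-through genes or a trend on length and GC content. Sums over overlapping genes were chosen after the data were seen.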

Additional observations from a re-analysis of the deposited data

Results flagged for a closer look

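For 14 genes the H1299 and HCC827 ratios of siCDH3 to siCTR lay past 2-fold in opposite directions. With 1 library per line and siRNA the difference between the lines was not tested. Lower in H1299 and higher in HCC827 were RHOQ (log2 ratio -2.32 in H1299 and 1.39 in HCC827), CTNND1 (-1.78 and 1.24), ARF4 (-1.20 and 1.69), ABHD10 (-1.09 and 1.19), MANSC1 (-1.07 and 1.41) and NUDT16 (-1.03 and 1.03). Higher in H1299 and lower in HCC827 were MRPL34 (2.11 and -2.01), ID2 (1.86 and -1.32), SNORD4B (1.64 and -1.24), CBX1 (1.60 and -1.53) and ASIC1 (1.46 and -1.03). The remaining 3 are read-through genes, whose values depend on how reads were divided among overlapping genes: C7orf55-LUC7L2 (3.61 and -3.19), ISY1-RAB43 (1.57 and -1.12) and AC068580.4 (1.57 and -1.05).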

How the results depend on the processing

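Counts of genes at least 2-fold higher and lower were 102 and 184. They were 47 and 91 with a pseudocount of 5, 228 and 308 with a filter at TPM 1, 228 and 308 with no filter, 43 and 108 with a filter at TPM 20, 373 and 826 at 1.5-fold, and 12 and 26 at 4-fold. They moved by less than 1.5 times under the other alternatives, with 140 and 134 when the median was set to 0, 141 and 133 after quantile normalization, and 77 and 159 when overlapping genes were summed. Of 514 list medians relative to all genes under an alternative, 491 stayed within 0.1 of the reported value over 47 lists. Clustered protocadherins, at -0.13, reversed to 0.026 with no filter and to 0.33 as a mean, and neuroendocrine genes, at 0.35, reversed to -0.011 with a filter at TPM 20 and were 0.0936 with no filter and 0.83 as a mean. With a filter at TPM 20, junctions were at -0.18, epithelial genes at 0.16 and death receptors at 0.026. With a filter at TPM 1, NRF2 targets were at -0.024. With no filter, cadherins were at -0.13, epithelial genes at 0.0938, NRF2 targets at -0.076 and TGF-beta genes at -0.14. As means, interferon effectors were at 0.35, death receptors at -0.31, the MYC network at -0.19, mitochondrially encoded genes at 0.54 and RNA interference genes at -0.18. With the trend removed, cadherins were at -0.16, epithelial genes at 0.15 and histones at 0.11. After quantile normalization, mitochondrially encoded genes were at 0.11 and ribosomal proteins at 0.00667. The causes were not tested. Of 80 named genes past 2-fold, 20 came inside it with a pseudocount of 5 and 12 when overlapping genes were summed, and 3 reversed, all when overlapping genes were summed: LBHD1 to 0.46, PCDHGA6 to 0.76 and RTEL1-TNFRSF6B to -1.89. No paired analysis was possible because each line and siRNA has 1 library and no test was made, and no library could be left out for the same reason.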

Other observations

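Among transcripts outside the protein-coding genes, several short or overlapping ones, chosen after their values were seen, had large ratios in H1299. TGFB2-OT1, which lies at the 3′ end of TGFB2, had 22.6 TPM in siCTR and 0.496 TPM in siCDH3, and summed with TGFB2 the log2 ratio was -1.50. SNORD87, a small nucleolar RNA, had 9.44 TPM and 0.0641 TPM, and SNORD14B had 6.95 TPM and 0.137 TPM. In HCC827 their log2 ratios were 0.01 and -0.02. TPM of such short genes rests on few reads at any depth, and the number of reads behind these values is unknown.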
